A study of Mus musculus with 12 samples.

Results

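The Hoxd genes are the 9 homeobox genes of the mouse HoxD cluster, Hoxd1, Hoxd3, Hoxd4, Hoxd8, Hoxd9, Hoxd10, Hoxd11, Hoxd12 and Hoxd13. They were taken as every array probe named for one of them, which gave 12 probes of 41174 and 9 genes of 21179 named genes. Hoxd3, Hoxd9 and Hoxd13 have 2 probes each and the other 6 genes have 1. RNA came from mouse embryonic stem (ES) cells, which are cultured pluripotent cells, left undifferentiated or differentiated for 3 days in retinoic acid. The labels name no genotype, ES cell line, retinoic acid dose or culture method for either group, and no treatment that both groups share. Each group had 3 samples, read from the sample titles as biological replicates, and Cy3-labelled RNA of each was hybridised to 2 technical arrays (12 arrays). Nothing in the labels tells whether separate cultures were used, so the p-values measure only the spread between these samples.

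Hox proteins are homeodomain transcription factors that tell cells their position along the body axis. In each Hox cluster the genes lie in the order in which they are used: those of low paralog number are expressed early and far forward, and those of high number late and toward the tail. Retinoic acid switches on the low-numbered end of the clusters in the embryo and in ES cells, where the clusters are otherwise held silent by Polycomb proteins. In the embryo the high-numbered Hoxd genes pattern the limbs, digits and genital bud, and mutations of Hoxd13 give joined and extra digits.

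Median net spot intensities ran from 37.4 to 96.6 between arrays. A probe counted as above background past the 95th percentile of an array's negative controls, a limit that ran from 8.50 to 51.65 and was lowest on the 2 arrays of undifferentiated replicate 2 (8.50 and 9.24). The ES cells carried their label's markers, with 9 of 9 measured marker genes above background on all undifferentiated arrays and 8 of them lower after retinoic acid. All 9 stayed above background on all retinoic acid arrays. Their summed normalized intensity ran from 111000 to 161000 in undifferentiated and from 34600 to 44200 in retinoic acid samples. Of the endoderm and trophoblast markers, 5 of 6 and 5 of 7 were also above background on all undifferentiated arrays. Some markers of other cell types also differed. Of the tested markers, 5 of 9 for fibroblasts, 3 of 6 for endoderm, 3 of 6 for trophoblast, 2 of 5 for mesoderm and 2 of 6 for neural cells were called higher, and 1 fibroblast and 1 trophoblast marker were called lower. Of all genes tested, 18.7% were called higher and 13.6% lower, and whether the marker counts differ from these shares was not tested. The summed normalized intensity of each list ran, in undifferentiated and then retinoic acid samples, from 6040 to 14900 and 25800 to 32400 for fibroblasts, from 785 to 1610 and 5090 to 5660 for endoderm, from 4270 to 5920 and 46300 to 54200 for trophoblast, from 336 to 401 and 1270 to 1350 for mesoderm, and from 2580 to 3450 and 3710 to 4080 for neural cells. Each sum is weighted to its brightest genes. In retinoic acid samples these were Krt8 and Krt18 for trophoblast (log2 values of 14.05 and 15.03) and Tagln and Acta2 for fibroblasts (13.70 and 13.69). In the same lists Tfap2c (log2 change of -3.08) and Thy1 (-2.07) were called lower, and Eomes (-0.47) and Acta2 (0.91) were not called. No retinoic acid array was above background for Postn (fibroblast), Elf5 (trophoblast), Mixl1 (mesoderm) or Olig2 (neural). The part of these cell types in the Hoxd result was not tested, and in bulk RNA a change in the number of cells that use a gene cannot be told apart from a change in RNA per cell.

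The sequences before the start sites of 5 Hoxd genes are shown. They are the 4 that hold the motif marked below and that of Hoxd1. The sequences of Hoxd9, Hoxd11, Hoxd12 and Hoxd13, which lack it as Hoxd1 does, are not shown. The sequences shown set genes that were called higher beside one that was not tested. All are on the + strand of mouse assembly GRCm38.p6, as given by RefSeq, and run 5′ to 3′ over the 250 bases before the first start listed. They are at chr2:74762730-74762979 for Hoxd1, chr2:74711743-74711992 for Hoxd3, chr2:74721728-74721977 for Hoxd4, chr2:74704365-74704614 for Hoxd8 and chr2:74691641-74691890 for Hoxd10. Capitals mark the letters AGGTCA on either strand, a motif that retinoic acid receptors and many other nuclear receptors bind.
Hoxd1: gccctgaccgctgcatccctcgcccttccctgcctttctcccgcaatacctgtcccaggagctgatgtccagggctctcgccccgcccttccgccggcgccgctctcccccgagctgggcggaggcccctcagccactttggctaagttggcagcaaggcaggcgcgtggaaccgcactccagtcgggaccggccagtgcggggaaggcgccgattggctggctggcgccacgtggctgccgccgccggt
Hoxd3: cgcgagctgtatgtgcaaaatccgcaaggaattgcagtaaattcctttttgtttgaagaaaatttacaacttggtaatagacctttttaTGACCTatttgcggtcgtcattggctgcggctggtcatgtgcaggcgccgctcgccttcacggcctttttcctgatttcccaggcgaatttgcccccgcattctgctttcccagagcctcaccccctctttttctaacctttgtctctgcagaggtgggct
Hoxd4: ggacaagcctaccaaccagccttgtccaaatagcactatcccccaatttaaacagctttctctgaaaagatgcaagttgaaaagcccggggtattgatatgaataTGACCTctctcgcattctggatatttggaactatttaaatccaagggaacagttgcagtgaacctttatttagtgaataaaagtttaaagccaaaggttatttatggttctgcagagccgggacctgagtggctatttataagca
Hoxd8: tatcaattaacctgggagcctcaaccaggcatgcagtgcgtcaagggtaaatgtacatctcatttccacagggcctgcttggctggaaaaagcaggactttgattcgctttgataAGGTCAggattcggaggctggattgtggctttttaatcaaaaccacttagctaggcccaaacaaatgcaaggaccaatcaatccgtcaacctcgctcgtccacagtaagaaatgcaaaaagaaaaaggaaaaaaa
Hoxd10: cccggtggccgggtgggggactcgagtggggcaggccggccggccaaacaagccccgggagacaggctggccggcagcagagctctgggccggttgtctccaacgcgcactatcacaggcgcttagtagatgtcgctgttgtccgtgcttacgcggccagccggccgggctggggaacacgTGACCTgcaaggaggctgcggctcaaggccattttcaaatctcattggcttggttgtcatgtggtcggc
Hoxd3, Hoxd4, Hoxd8 and Hoxd10 each held 1 such motif and the windows of the other 5 Hoxd genes held 0, so 4 of the 10 Hoxd windows had it (Hoxd11 has 2 listed starts), beside 14% of all 32851 windows of this length in the table. The motif was in windows of genes that were called higher (Hoxd3, Hoxd4, Hoxd8) and of one that was not tested (Hoxd10). It was not in that of Hoxd1, which had the largest fitted change, nor in those of Hoxd9 and Hoxd13, which were also called higher. The pair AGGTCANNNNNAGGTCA, searched on both strands and overlapping the single motif, was in 0 Hoxd windows and in 3 windows of the table. The windows differed in base composition, with 24 CpG dinucleotides for Hoxd1, 20 for Hoxd10, 12 for Hoxd3, 6 for Hoxd8 and 3 for Hoxd4, beside a median of 6 over all windows. A match in these letters is a description and not a site of binding.

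After retinoic acid Hoxd1, Hoxd4, Hoxd8 and Hoxd9 were higher, and Hoxd3 and Hoxd13 were each higher on 1 of their 2 probes. Hoxd10 and Hoxd11 were at or near background in most samples, and Hoxd12 was not called. In limma's fit across all genes, 6 of the 7 Hoxd genes tested were called higher and 0 lower at an adjusted p under 0.05, and the 6 had groups that did not overlap. With the mean of a gene's probes the count was 4, without Hoxd3 and Hoxd13. Of the 15326 genes tested, 18.7% were called higher, and 25.7% had groups that did not overlap in that direction. Testing required a signal above background on 4 or more of a group's 6 arrays, in either group. For 5 of the 6 called Hoxd genes this held only in the retinoic acid group, so they were tested only because they were bright in the group where they were high. With no filter, 6 of all 9 Hoxd genes were called higher, where 13.3% of all 21179 genes were, and the median change of the 9 was 1.01 on the log2 scale against -0.0106 for all genes. The share of calls that were higher depended on scaling over all genes (58.0% with quantile normalization, 48.1% with 75th percentile and 51.6% with median scaling), whereas the same count of 6 Hoxd genes was called higher under each.

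**Figure D1:**
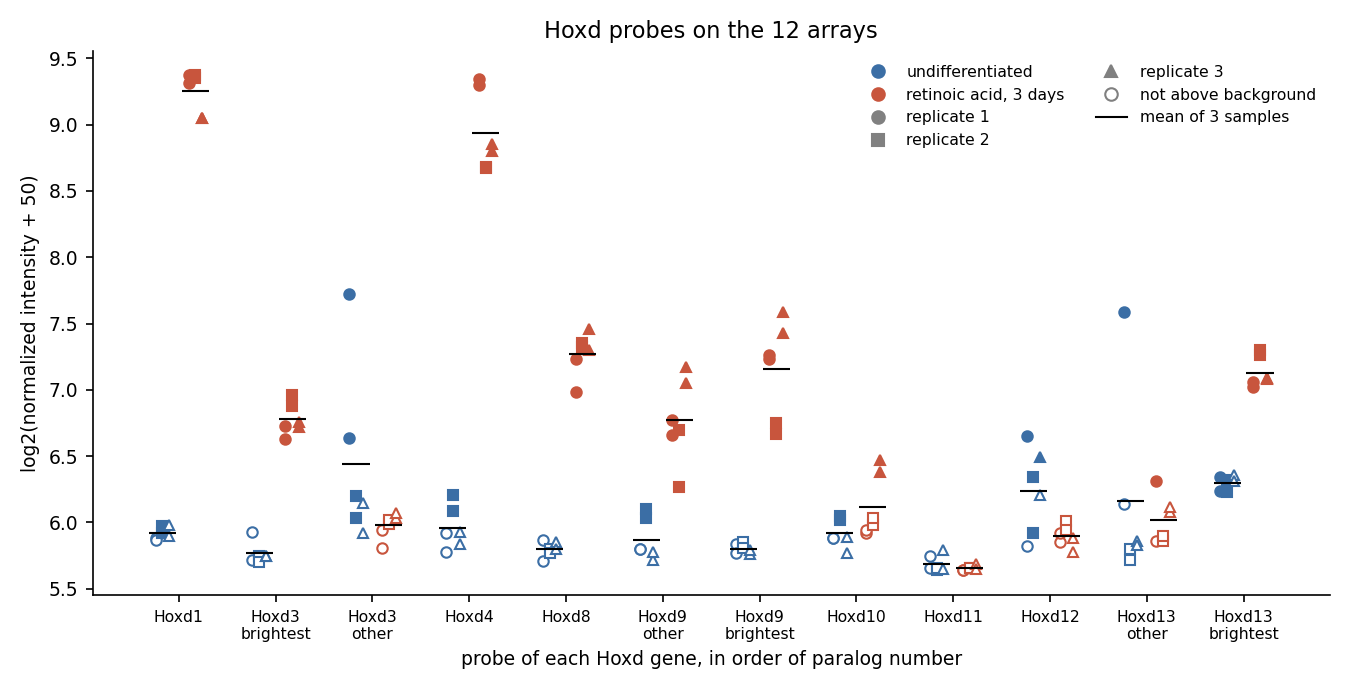
Log2 of normalized intensity plus 50 (vertical axis) of the 12 Hoxd probes (horizontal axis, in order of paralog number) on each array, blue for undifferentiated and red for retinoic acid, with the replicate as the symbol, open symbols for arrays not above background and a line for the mean of 3 samples. Hoxd1 and Hoxd4 lie far apart between the groups (5.92 against 9.25 and 5.96 against 8.94), the second probes of Hoxd3 and Hoxd13 have their highest values in undifferentiated replicate 1 (without it their differences are -0.10 and 0.22), and Hoxd11 lies at the bottom of the scale in both.

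Intensities below are quantile-normalized and linear, and log2 values are those of the intensity plus 50, which understates the change of dim genes. Hoxd1, the first gene of the cluster in the embryo's sequence of use, had intensities of 8.75, 11.6 and 11.5 in undifferentiated replicates 1, 2 and 3 and of 599, 607 and 480 after retinoic acid. All 3 retinoic acid samples were far above the undifferentiated ones, which exceeded background only on the 2 arrays of replicate 2. In log2 values Hoxd1 went from 5.92 ± 0.04 (SD, n = 3) to 9.25 ± 0.17 (SD, n = 3), a change of 3.33 ± 0.15 (SE; limma, adjusted p = 1.11e-05). The change was 4.79 with 10 and 5.60 with 1 in place of the added 50, so its size depends on how the near-background undifferentiated signal is treated.

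Hoxd3 encodes a paralog group 3 protein, a group that patterns the neck vertebrae and the cranial neural crest. On the probe that stands for the gene, the brighter by its mean over all arrays, intensities were 6.90, 2.98 and 3.74 in undifferentiated and 52.7, 70.9 and 56.7 in retinoic acid samples. No undifferentiated array and all 6 retinoic acid arrays were above background, so Hoxd3 was at least 2.92-fold higher on this probe. The fitted change was 1.01 ± 0.15 (SE; limma, adjusted p = 0.00152). The second Hoxd3 probe showed no such rise, with 105, 19.5 and 15.9 in undifferentiated and 8.77, 14.2 and 16.4 in retinoic acid samples. In undifferentiated samples it was the brighter of the 2 probes (mean log2 value of 6.44 against 5.77). Its groups overlapped. On this probe 4 undifferentiated arrays and no retinoic acid array were above background, which gave at least 1.21-fold lower by the same rule. Its difference of -0.47 ± 0.30 (SE) was not called (limma over all probes, adjusted p = 0.306). Without undifferentiated replicate 1, whose technical arrays gave 49.4 and 161, the difference of this probe was -0.10 (limma over all probes, adjusted p = 0.734). Both probes carry the same accession, and on the mean of both the change of Hoxd3 was 0.27 and no longer called (limma, adjusted p = 0.316).

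Hoxd4, a group 4 gene expressed up to the hindbrain, had intensities of 7.83, 21.1 and 9.03 in undifferentiated and 589, 359 and 403 in retinoic acid samples. The groups were again far apart, with retinoic acid replicate 1 the highest. Its log2 values went from 5.96 ± 0.16 (SD, n = 3) to 8.94 ± 0.34 (SD, n = 3), a change of 2.98 ± 0.21 (SE; limma, adjusted p = 4.73e-05). As with Hoxd1, only the 2 arrays of undifferentiated replicate 2 exceeded background in that group, and the change was 4.37 with 10 added and 5.18 with 1 added. In the RefSeq gene table Hoxd4 lies within the span of the long Hoxd3 transcripts, and which of the overlapping transcripts each probe reads was not tested.

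Hoxd8, in the middle of the cluster, gave 5.30, 5.15 and 6.72 in undifferentiated and 88.2, 112 and 117 in retinoic acid samples. No undifferentiated array and all 6 retinoic acid arrays were above background, so it was at least 5.12-fold higher. Its log2 values went from 5.80 ± 0.02 (SD, n = 3) to 7.27 ± 0.15 (SD, n = 3). The fitted change was 1.47 ± 0.15 (SE; limma, adjusted p = 0.000276).

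Hoxd9 belongs to the Abdominal-B-like genes, which pattern the trunk, limbs and tail. Its brighter probe gave 5.87, 6.78 and 4.78 in undifferentiated and 102, 54.8 and 133 in retinoic acid samples, at least 4.43-fold higher, with 0 of 6 undifferentiated arrays above background. The groups did not overlap, but the retinoic acid samples spread more than for Hoxd8, with replicate 2 lowest. Its log2 values went from 5.80 ± 0.03 (SD, n = 3) to 7.16 ± 0.41 (SD, n = 3). The fitted change was 1.35 ± 0.22 (SE; limma, adjusted p = 0.00252). The second Hoxd9 probe kept that order of replicates, at 55.1, 40.5 and 88.1 after retinoic acid against 5.60, 16.9 and 3.89. It was higher by 0.90 ± 0.20 (SE; limma over all probes, adjusted p = 0.015), a call that was lost without undifferentiated replicate 1 (0.86; adjusted p = 0.0556), retinoic acid replicate 1 (0.93; 0.0517) or retinoic acid replicate 3 (0.73; 0.0607).

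Of the 12 Hoxd probes 9 were tested singly and 7 were called higher, where 14% of the 26587 probes tested were. All of the called probes but that of Hoxd13 passed the filter only through the retinoic acid group, where they were high. The 2 probes not called were the second Hoxd3 probe and that of Hoxd12.

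Hoxd10, Hoxd11 and Hoxd12 are the next Abdominal-B-like genes, and none of them was called higher: Hoxd10 and Hoxd11 were not tested and Hoxd12 was not called. Hoxd10 had intensities of 8.91, 15.6 and 6.89 in undifferentiated and 11.1, 14.1 and 35.8 in retinoic acid samples. Only 1 retinoic acid sample, replicate 3, stood above the undifferentiated range, and both of its technical arrays exceeded background (33.3 and 38.4). The group difference of 0.20 was not tested, because 2 of 6 arrays in each group were above background. Hoxd11 was above background on none of the 12 arrays, with net intensities of 0 to 5.22, so no level or change can be given for it. Hoxd12 gave 28.4, 20.6 and 31.9 in undifferentiated and 9.21, 12.8 and 6.85 in retinoic acid samples.

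The 3 undifferentiated values of Hoxd12 were all above the 3 retinoic acid values, opposite to the 6 Hoxd genes called higher, Hoxd13 among them. The difference of -0.34 ± 0.15 (SE) was not called (limma, adjusted p = 0.113). It was called with 1 added before log2 (-1.17; limma, adjusted p = 0.0244), with 10 added (-0.79; 0.0276) and with a variance trend (-0.34; 0.0471), and the adjusted p ran from 0.0244 to 0.678 over all alternatives. No retinoic acid array was above background for Hoxd12 and 4 of 6 undifferentiated arrays were. Its technical arrays differed widely, with 50.1 and 6.65 for undifferentiated replicate 1.

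Hoxd13, the last gene of the cluster, was higher on the brighter of its 2 probes. That probe gave 28.3, 27.6 and 31.0 in undifferentiated and 81.8, 105 and 85.5 in retinoic acid samples. The groups did not overlap and the samples within each lay close together. Both groups were measured here, with 4 of 6 undifferentiated and 6 of 6 retinoic acid arrays above background. The change was 0.83 ± 0.14 (SE; limma, adjusted p = 0.0037), from 6.30 ± 0.03 (SD, n = 3) to 7.13 ± 0.13 (SD, n = 3), and 1.61 with 1 added. On the second Hoxd13 probe the samples gave 81.6, 4.16 and 7.39 undifferentiated and 18.8, 8.82 and 18.6 after retinoic acid. This probe was above background on 1 array of each group and was not tested. Its group difference was -0.13, and 0.22 without undifferentiated replicate 1, whose technical arrays gave 142 and 20.7. On the mean of both probes the change of Hoxd13 was 0.35 and not called (limma, adjusted p = 0.163).

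The fitted changes had 95% confidence intervals of 2.97 to 3.68 for Hoxd1, 2.50 to 3.45 for Hoxd4, 1.13 to 1.82 for Hoxd8, 0.85 to 1.85 for Hoxd9, 0.67 to 1.35 for Hoxd3 and 0.50 to 1.17 for Hoxd13. They hold on the scale with 50 added and for the probe that stands for each gene. On that probe Hoxd3, Hoxd8 and Hoxd9 had no undifferentiated array above background. Their intervals lie below the folds that the background limits alone give (at least 2.92, 5.12 and 4.43). The genes are therefore not ranked by these values, whose differences were not tested, and the fitted sizes changed order without retinoic acid replicate 2 (1.58 for Hoxd9 and 1.44 for Hoxd8). With 1 added the change was 5.18 for Hoxd4 and 4.05 for Hoxd8. Leaving out any 1 of the 6 samples kept all 6 calls, with changes of 3.27 to 3.43 for Hoxd1, 2.79 to 3.11 for Hoxd4, 1.42 to 1.56 for Hoxd8, 1.18 to 1.58 for Hoxd9, 0.94 to 1.06 for Hoxd3 and 0.76 to 0.88 for Hoxd13. Across the 12 probes the 2 technical arrays of a sample differed by a median of 0.0795 on the log2 scale in undifferentiated and 0.0461 in retinoic acid samples, against 0.0736 for all probes. The largest such difference was 1.44 in undifferentiated samples, on the second Hoxd13 probe.

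**Figure D2:**
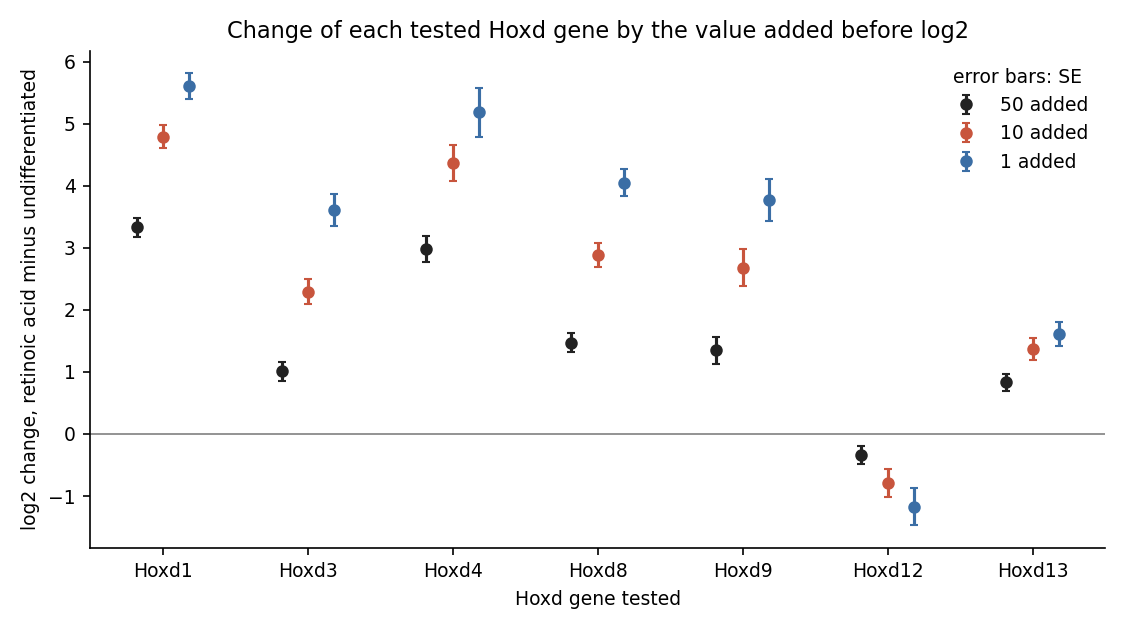
Log2 change, retinoic acid minus undifferentiated (vertical axis, with its SE), of the 7 Hoxd genes tested (horizontal axis), with 50, 10 or 1 added to the intensity before log2. The 6 called genes lie above 0 under each setting and Hoxd12 below it, and the size moves most for Hoxd3, from 1.01 with 50 to 3.61 with 1 added.

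Of the 9 measured genes that flank the cluster 0 were called higher and 1 lower, where 18.7% and 13.6% of all genes tested were; whether they differ from the Hoxd genes was not tested. On the Hoxd13 side, Evx2, a homeobox gene that is regulated with the posterior Hoxd genes in limbs, was not called (0.18, 95% confidence interval -0.47 to 0.83), and neither were Lnpk (-0.27), Atp5g3 (0.00), Atf2 (-0.47) and Chn1 (-0.23; 0.40 on its second probe, which was not called but whose groups did not overlap). On the Hoxd1 side, Mtx2, a mitochondrial import gene that lies next to Hoxd1, was not called (0.38, interval -0.23 to 0.98), nor were Hnrnpa3 (-0.11; above 40000, close to the brightest values of the scale, on 4 arrays) and Agps (0.28). Nfe2l2, the oxidative stress factor NRF2, was lower (-0.60 ± 0.14, SE; limma, adjusted p = 0.0142). Its other probes gave -0.72, called lower, and -0.20, not called. On their brightest probes all 9 measured flanking genes were above background on every array. Some of their other probes were not, among them 1 of Atf2 (0 arrays of either group) and 1 of Mtx2 (3 arrays of each group). The antisense RNA Hoxd3os1, named here after its values were seen, was above background on 1 undifferentiated and 0 retinoic acid arrays with each of its 2 probes.

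**Figure D3:**
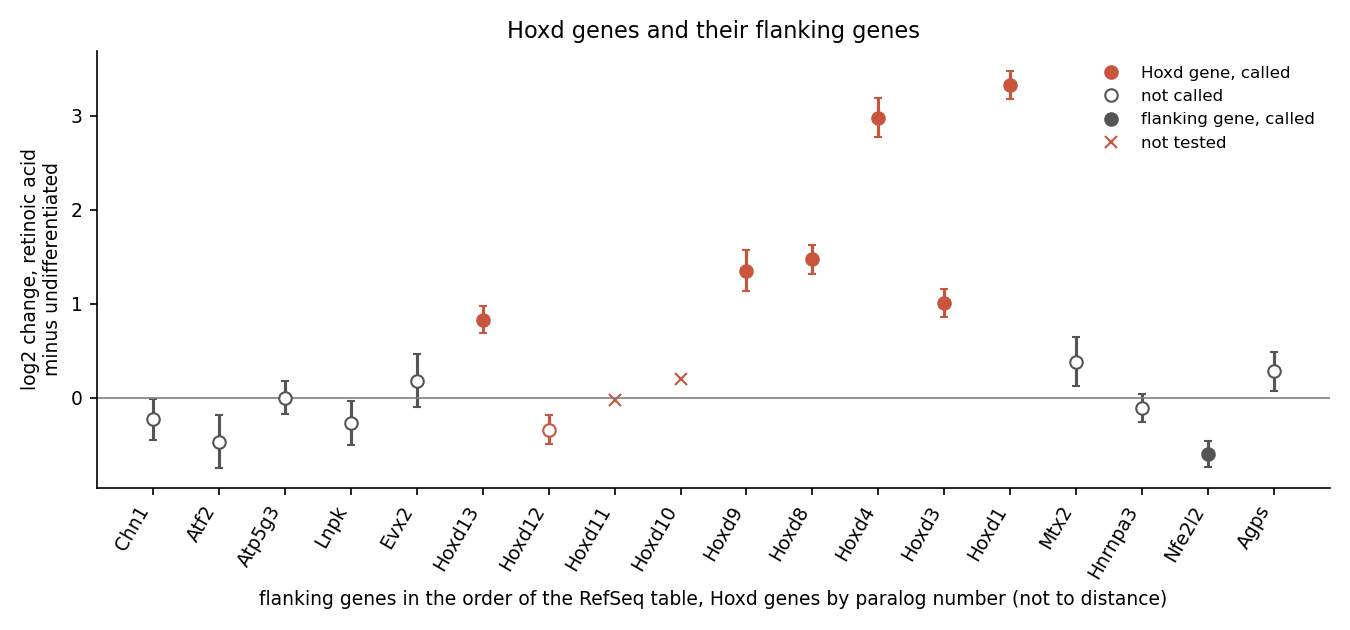
Log2 change with its SE (vertical axis) of the Hoxd genes (red) and of the measured protein-coding genes beside the cluster (grey), the flanking genes in the order of the RefSeq gene table and the Hoxd genes by paralog number, not to distance; filled circles were called, open ones not called and crosses not tested. The 6 genes called higher here are Hoxd genes, and Nfe2l2 is the called flanking gene, at -0.60.

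Paralogs, the genes of the same number in the other clusters, are similar proteins with partly shared roles. Among the tested genes 6 of 8 Hoxa, 9 of 10 Hoxb and 3 of 7 Hoxc genes were called higher and 0 lower. Of all genes tested 18.7% were called higher and 13.6% lower. Most of the called genes of these clusters, among them Hoxa4, Hoxb3 and Hoxc9, passed the filter only through the retinoic acid group, where they were high. The median changes were 3.35, 3.66 and 0.69, against 1.35 for the 7 Hoxd genes and 0.0035 for all genes tested. Hoxd1 (3.33) stood beside Hoxb1 at -0.48, which was not called. Hoxd3 (1.01) stood beside Hoxb3 at 4.46 (4.25 on its second probe) and Hoxa3 at 0.40, not called on its brighter probe and 2.67 on the second. Hoxd4 (2.98) stood beside Hoxa4 at 3.30 (1.26 on its second probe), Hoxb4 at 2.14 and Hoxc4 at -0.02, which was not called. For Hoxd8 (1.47) the paralogs were Hoxb8 (4.68) and Hoxc8 (2.03). The second Hoxb8 probe, above background on no retinoic acid array, had a difference of 0.11 and was not tested. For Hoxd9 (1.35) the paralogs were Hoxa9 (3.41), Hoxb9 (2.78, and 2.03 on its second probe) and Hoxc9 (3.70). In groups 10 to 12 none of the measured genes was called, among them Hoxc10 (0.69) and Hoxd12, and Hoxa10, Hoxa11, Hoxc12, Hoxd10 and Hoxd11 were not tested. The groups of Hoxc10 did not overlap (95% confidence interval 0.13 to 1.25, limma, adjusted p = 0.0637), and its second probe (0.08) was not tested. In group 13 Hoxb13 (1.35) and Hoxd13 (0.83) were called higher, Hoxc13 (-0.07) was not called and Hoxa13 was not tested. The differences between paralogs were not tested.

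**Figure D4:**
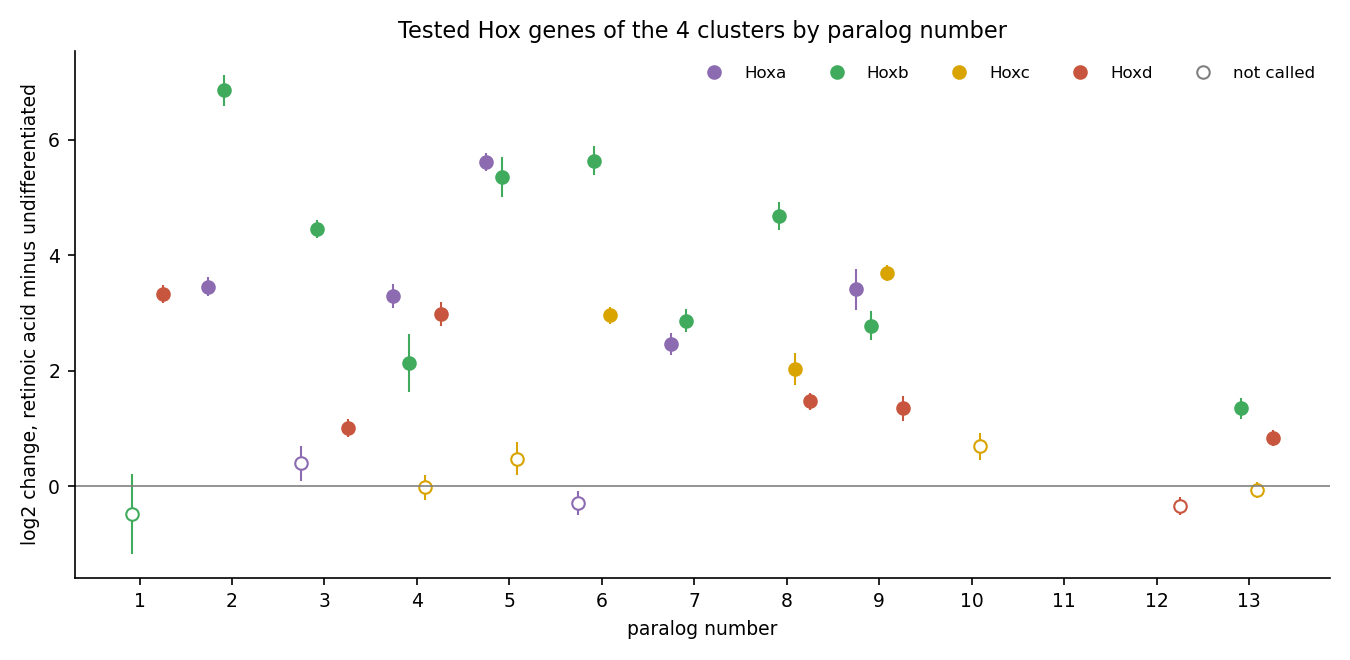
Log2 change with its SE, retinoic acid minus undifferentiated (vertical axis), of tested Hox genes, each by its brightest probe, by paralog number (horizontal axis), coloured by cluster, open where not called. Hoxd3, Hoxd8 and Hoxd9 lie below the highest paralog of their number, Hoxd4 lies close to Hoxa4 (2.98 and 3.30), and called changes are missing from groups 10 to 12.

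Genes that act with or on the Hox genes were counted in the same way, beside 18.7% called higher and 13.6% called lower of all genes tested. Of the TALE homeobox genes, whose proteins bind DNA together with Hox proteins, 7 of 9 were called higher (median 2), among them Meis2 (5.71) and Meis1 (3.69). Cdx1 (0.92) and Cdx2 (1.17), activators of the trunk Hox genes, were called higher, and Cdx4 was not tested. Meis1, Cdx1 and Cdx2 passed the filter only through the retinoic acid group. Of 14 retinoic acid response genes 9 were called higher and 0 lower (median 2.09), among them Cyp26a1 (8.04), which degrades retinoic acid and exceeded 40000 on 2 arrays. Of 20 Polycomb genes, whose products keep Hox clusters silent, 5 were called higher and 7 lower (median -0.33), with Phc2 (2.72) higher and Phc1 (-1.89) lower, both of the PRC1 complexes. Of 8 genes of the MLL complexes, which keep Hox genes active, 2 were called higher and 2 lower (median -0.25), with Men1 (0.89), the menin gene, higher and Ash2l (-1.22) and Dpy30 (-0.84) lower.

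The mean log2 value of the 7 tested Hoxd genes was 5.95, 5.98 and 5.98 in undifferentiated replicates 1, 2 and 3 and 7.52, 7.46 and 7.49 after retinoic acid. Of the tested genes outside the Hox clusters, those most like this profile by Pearson correlation over the 6 samples were Ptges (0.9999), Ppp2r2b (0.9997), Cyp1b1 (0.9997), Dhrs3 (0.9996) and Cyp26a1 (0.9991). The samples fall into the 2 groups, so the gap between groups makes up most of this likeness, which is a description without a test. These 5 genes had changes of 3.78 (Ptges, a prostaglandin E synthase), 3.35 (Ppp2r2b, a phosphatase subunit), 5.06 (Cyp1b1, a cytochrome P450), 5.89 (Dhrs3, a retinal reductase) and 8.04 (Cyp26a1).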

How the data were processed

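Gene expression was measured on 12 one-colour Cy3 arrays. Values used were the deposited scanner values, a linear intensity per spot that is net of background per the file headers. R 2.15.0 and limma are named in the submitters' processing notes for the deposited value table, which served as an alternative. One file's header names the other technical array of its sample. The 41174 probes were quantile-normalized, 50 was added and log2 taken. Probes were named through RefSeq (GRCm38.p6) by accession or symbol. A gene was represented by its probe of highest mean log2 value, and technical arrays were averaged. limma 3.58.1 (R 4.3.3; lmFit, eBayes, two-sided, no covariates, Benjamini-Hochberg over all genes tested) compared 3 with 3 samples, and further probes came from the same model over all probes tested. The fit was tested on simulated data. A fold given as "at least" sets the bright group's mean against a floor, which on each array is the lowest signal above background or the probe's own signal where that is higher. Precision is limited by the small number of samples. Named genes were the Hoxd genes, the 5 nearest protein-coding genes on each side, up to 3 called genes of a list, and the 5 genes of most similar profile. Hoxd3os1, the paralog-by-paralog values and the single markers named for cell types were added after values were seen. Some genes of the lists are not reported here by name. The members and lists were chosen with earlier results of these data known. Alternatives are in the closing section. Figures used Python 3.11.15 and matplotlib 3.10.9. No source used here names a genome build for the array, so the only positions printed are those of the RefSeq sequences.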

Additional observations from a re-analysis of the deposited data

How the results depend on the processing

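Over 22 alternatives the calls and directions of Hoxd1 (3.27 to 5.60), Hoxd4 (2.79 to 5.18), Hoxd8 (1.39 to 4.05) and Hoxd9 (0.90 to 3.77) held. The exception was that no Hoxd gene could be tested when a gene had to be above background on all 12 arrays, which made the count of Hoxd genes called higher 0. Not all alternatives are separate checks. Hoxd1, Hoxd4 and Hoxd8 have 1 probe each, so a change of probe reuses it. The deposited values correlated with the main ones at 0.999997 or more. The count was 4 with the mean of a gene's probes and 4 with the second brightest probe, which gave Hoxd3 a change of -0.47 and left Hoxd13 untested. The count of Hoxd genes called lower was 1 (Hoxd12) with 1 added, with 10 added and with a variance trend and robust estimation. The difference of the second Hoxd13 probe ran from -0.33 (without undifferentiated replicate 2) to 0.22 (without undifferentiated replicate 1), an alternative chosen after the data were examined, as were the other fits of second probes without 1 sample. At an adjusted p under 0.01 all 6 Hoxd calls held, and over all genes 1784 were called higher and 1114 lower. Leaving out 1 sample, all genes called higher ran from 2007 to 3148 and those called lower from 1228 (without retinoic acid replicate 3; 1326 without retinoic acid replicate 1) to 2108. Whether the replicate numbers pair the samples cannot be settled with 3 samples per group. After normalization same-numbered samples had deviations correlated at -0.0602, 0.217 and 0.0662, and not every sample correlated best with its own number. Before it, the replicate 3 arrays of both groups had the highest median net intensities (66.99 and 67.32 undifferentiated, 96.63 and 93.47 retinoic acid). With the replicate block 6 Hoxd genes were called higher, as without it, and 2849 genes in all. Depth is not defined for arrays; for Hoxd10 and Hoxd11, and for most Hoxd genes in undifferentiated cells, signal near background limits what can be measured.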
